A study of Rattus norvegicus with 12 samples.

Results

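Primary rat microglia kept for 24 h in medium from neuronal cells that make alpha-synuclein were compared with microglia kept for 6 h in the same kind of medium. The comparison takes 6 of the 12 arrays of the series, 3 for each time, chosen by the time and medium that their titles give. Microglia are the resident immune cells of the brain, here grown in culture. The medium, aSCM, came from SH-SY5Y, a human neuroblastoma line that can be made to take on neuron-like features, after differentiation and infection with an adenoviral vector for human alpha-synuclein at a multiplicity of infection of 100. The infected cells conditioned serum-free medium for 18 h, and the cleared medium was given to the microglia as a 5-fold concentrate. The groups are aSCM 24 h and aSCM 6 h and, as controls that differ in the medium, LZCM 24 h and LZCM 6 h, with 3 arrays each. LZCM came from SH-SY5Y cells treated in the same way with a vector for LacZ, which encodes beta-galactosidase. Microglia of all 4 groups therefore received concentrated medium of adenovirus-infected human cells. No gene introduced into the microglia themselves is named, and whether vector passed to them with the medium was not tested. The labels mention both a plain and a mychis-tagged alpha-synuclein vector without saying which one these media came from. They give no rat strain, age or number of animals, and no number of medium preparations. Whether the 3 samples in a group are separate cultures is not stated, so the p-values reflect only how far these samples spread, and that spread may be technical.

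Alpha-synuclein is a presynaptic protein that aggregates in Parkinson's disease, and the title of the series names the form released by neurons as a ligand of Toll-like receptor 2. In macrophages and microglia these receptors signal through the adaptor Myd88 and the IRAK kinases to NF-kB, a transcription factor that IkB proteins hold in the cytoplasm. Immediate early transcription factors, cytokines, chemokines and feedback inhibitors are known as early targets of this signal. Interferon-beta released by the same cells can then act back on them through its receptor and raise antiviral genes, while later changes are known to reach metabolism and surface receptors. The comparison asks how far the state at 6 h had moved on by 24 h.

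The signal of each probe is given below as a normalized log2 value, so that a difference of 1 is a doubling, and no probe's level is set against that of another probe. Of 22523 probes, 11432 to 11601 were above background on the aSCM 24 h arrays and 11564 to 11768 on the aSCM 6 h arrays. The highest deposited log2 values were 15.56 to 15.65 on the 24 h arrays and 15.67 to 15.93 on the 6 h arrays, just under the end of a 16-bit scale. Arrays of the same aSCM group correlated at 0.9967 to 0.9972 at 24 h and at 0.9960 to 0.9976 at 6 h, and arrays of different times at 0.9614 to 0.9666.

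The label of the cells was checked against marker genes. Of 16 markers of microglia and macrophages 13 had a tested probe, and 13 were above background on all 3 aSCM 24 h arrays and 12 on all 3 aSCM 6 h arrays. The exception at 6 h was the fractalkine receptor gene Cx3cr1, which was above background on none of the 3. Among the defining markers, the probe of Aif1, which encodes the calcium-binding protein Iba1, read 14.99 ± 0.06 at 24 h and 15.10 ± 0.04 at 6 h (SD, n = 3 each). The normalized signal of the 13 markers, summed on the linear scale, was 155763 to 159285 at 24 h and 201593 to 202742 at 6 h in aSCM. Such a sum weighs bright probes most. Of the 13 markers 4 were called higher at 24 h, 4 lower and 5 not called, against 31.7% higher and 27.4% lower over all tested probes. Those called higher were Cx3cr1, Itgam, Laptm5 and Ptprc, the last a call that ended under 8 alternatives. Those called lower were C1qa, C1qb, C1qc and Ctss. Aif1 was not called, but was called lower with 75th percentile scaling and with cyclic loess. The median log2 fold change of the 13 markers was 0.15. Markers of other brain cells were present as well. The 6 tested astrocyte markers summed to 3259 to 3340 at 24 h and 4562 to 4805 at 6 h, the 9 markers of the oligodendrocyte lineage to 5204 to 6035 and 4187 to 4612, and the 9 neuronal markers to 1711 to 1792 and 3336 to 3640. None of these ranges overlapped between the times. Of the 9 neuronal markers 0 were called higher at 24 h, 6 lower and 3 not called. The 4 tested endothelial markers summed to 1691 to 1838 at 24 h and 538 to 630 at 6 h, and the probe of the adhesion gene Esam, one of them, was 4.52-fold higher at 24 h (95% interval 3.79 to 5.39; limma adjusted p = 8.24e-09). Ocln was also called higher, and Cldn5 and Flt1 were not called. The 3 tested fibroblast and pericyte markers summed to 513 to 517 and 721 to 911, with Dcn called higher, Col1a2 called lower and Fbln1 not called. The 3 of T and B cells summed to 400 to 502 and 253 to 286, with Lck called higher and Cd3e and Cd79b not called. Among the 9 markers of the oligodendrocyte lineage, the transcription factor genes Sox10 and Olig1 were called higher at 24 h (0.99 and 0.60 on the log2 scale, limma adjusted p = 9.67e-07 and 3.66e-05). The myelin genes Mbp, Mobp and Mag were called lower, and Mog, Pdgfra, Cspg4 and Olig2 were not called. Mobp, Mag and Mog were above background on 0 of the 3 aSCM 24 h arrays and on all 3 aSCM 6 h arrays. In RNA from a whole culture, fewer cells of a type and less RNA per cell cannot be told apart. The part of other cells in the differences between 24 h and 6 h was not tested.

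**Figure D1:**
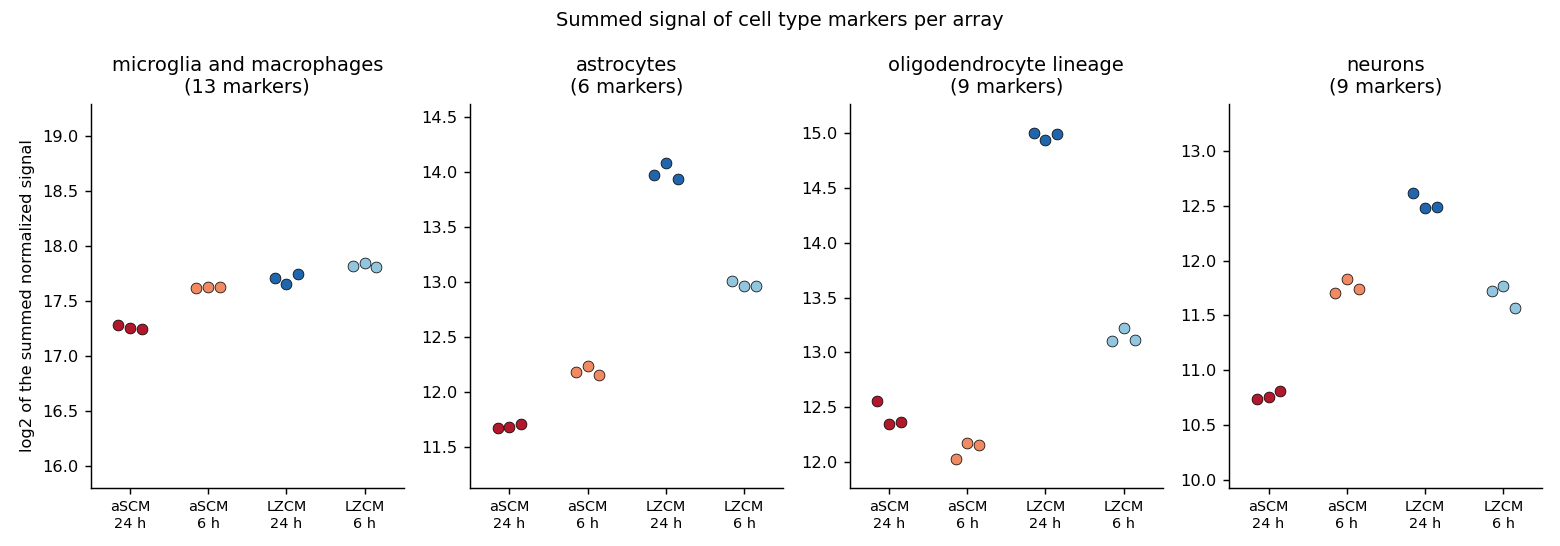
Summed signal of the tested markers of 4 cell types on each array (vertical axis, log2 of the normalized linear signal summed over the markers; each panel spans the same number of log2 units), by group (horizontal axis), with 1 point per array. In aSCM the microglia and macrophage sum was 155763 to 159285 at 24 h and 201593 to 202742 at 6 h, while the sums for the other 3 cell types in LZCM were higher at 24 h than at 6 h.

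Signals at 24 h and 6 h in aSCM differed for most tested probes. By limma, 7688 of 13003 probes (59.1%) had a Benjamini-Hochberg adjusted p under 0.05 and are called below. Of these, 4121 were higher at 24 h (31.7% of those tested), by a median of 1.51-fold, and 3567 were lower (27.4%), by a median of 1.58-fold. Falls outnumbered rises among large changes, with 962 falls against 819 rises of at least 2-fold, 206 against 87 of at least 4-fold and 37 against 9 of at least 10-fold. The scaling decided which direction was more common over all calls, as cyclic loess gave 3481 higher and 4099 lower and the unprocessed deposited values gave 2178 higher and 2877 lower. The 24 h and 6 h arrays did not overlap for 61.7% of the tested probes. Background separated 137 probes that passed it on every aSCM 24 h array and on no aSCM 6 h array, 134 of which were called higher, from 240 with the opposite pattern, 222 of which were called lower. The counts of gene lists below are to be read against 31.7% higher and 27.4% lower, and against a median log2 fold change of 0.03 over all tested probes. For the same reason they are set beside LZCM, in which 4647 probes (35.7%) were called between 24 h and 6 h, 17.7% higher and 18.0% lower, with a median log2 fold change of -0.01. The unprocessed deposited values gave 697 higher and 2070 lower in LZCM, with a median of -0.15. The time effects in aSCM and LZCM, which share no arrays, differed for 6628 probes (51.0%), more positive in aSCM for 26.5% and more negative for 24.4%. At 24 h, 56.3% of probes differed between aSCM and LZCM, 28.9% higher in aSCM and 27.4% lower, and these values share the aSCM 24 h arrays with the time effect.

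The 15 largest falls included genes of chemokines, a cytokine, interferon-induced proteins, surface receptors, an iron exporter, a transcription factor, a kinase and a regulator of Rab GTPases. Ccl20, which encodes a chemokine that attracts cells with the receptor Ccr6, fell furthest. Its probe read 7.35, 6.95 and 7.04 on the aSCM 24 h arrays, against 12.46, 12.47 and 12.37 on the aSCM 6 h arrays. The groups lie far apart, with every 24 h array near the dim end and every 6 h array high, a signal 40.05-fold lower at 24 h (95% interval 31.8 to 50.5; limma adjusted p = 6.88e-11). The cytokine gene Il6 read 8.64, 8.84 and 9.07 on the aSCM 24 h arrays, against 13.25, 12.98 and 12.89 on the aSCM 6 h arrays. All 3 arrays at 24 h were below all 3 at 6 h, and the signal was 18.2-fold lower at 24 h (95% interval 14.2 to 23.5; limma adjusted p = 6.98e-10). For Cxcl10, which encodes an interferon-induced ligand of the receptor Cxcr3, the probe read 8.85, 8.98 and 8.78 on the aSCM 24 h arrays, against 13.62, 13.52 and 13.24 on the aSCM 6 h arrays. They do not overlap, and the signal was 24.1-fold lower at 24 h (95% interval 18.0 to 32.3; limma adjusted p = 1.14e-09). Ifit3, an antiviral gene induced by interferon, read 7.65, 7.94 and 8.01 on the aSCM 24 h arrays, against 12.27, 12.13 and 12.01 on the aSCM 6 h arrays. Here too the times are apart, with a signal 19.3-fold lower at 24 h (95% interval 14.9 to 25.1; limma adjusted p = 8.16e-10).

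The stretches before the starts of these 4 genes, and of Lcn2 as an example of a gene that rose, are shown because NF-kB and the interferon-activated factors are known to bind such stretches. Each is the 250 bases before the annotated start in RefSeq (build GRCr8), read 5′ to 3′ along the gene's strand. The windows lie at chr9:91836909-91837158 on the plus strand for Ccl20, chr4:5894576-5894825 on the minus strand for Il6, chr14:15988816-15989065 on the plus strand for Cxcl10, chr1:241527076-241527325 on the plus strand for Ifit3 and chr3:36081781-36082030 on the minus strand for Lcn2. Capitals mark a match on either strand to a kB pattern, GGG followed by any 3 bases and TTCC, or to an interferon response pattern, GAAA followed by any 2 bases and GAAA.
Ccl20: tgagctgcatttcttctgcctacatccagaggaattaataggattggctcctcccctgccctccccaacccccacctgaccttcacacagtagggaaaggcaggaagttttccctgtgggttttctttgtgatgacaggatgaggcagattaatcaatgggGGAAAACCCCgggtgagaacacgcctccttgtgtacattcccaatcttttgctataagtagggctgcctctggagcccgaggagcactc
Il6: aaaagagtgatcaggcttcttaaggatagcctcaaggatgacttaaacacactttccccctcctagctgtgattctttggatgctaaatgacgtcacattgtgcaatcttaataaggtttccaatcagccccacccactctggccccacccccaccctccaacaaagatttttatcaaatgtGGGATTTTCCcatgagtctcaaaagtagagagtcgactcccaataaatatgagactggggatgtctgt
Cxcl10: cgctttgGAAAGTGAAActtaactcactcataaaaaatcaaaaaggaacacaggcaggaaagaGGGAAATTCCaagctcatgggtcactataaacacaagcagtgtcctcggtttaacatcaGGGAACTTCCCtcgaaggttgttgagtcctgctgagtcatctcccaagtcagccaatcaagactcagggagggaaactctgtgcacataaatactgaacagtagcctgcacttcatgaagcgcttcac
Ifit3: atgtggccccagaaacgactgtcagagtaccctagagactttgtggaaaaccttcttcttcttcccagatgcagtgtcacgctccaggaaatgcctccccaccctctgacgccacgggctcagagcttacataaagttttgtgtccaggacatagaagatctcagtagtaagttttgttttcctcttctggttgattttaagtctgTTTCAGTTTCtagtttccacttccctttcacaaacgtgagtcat
Lcn2: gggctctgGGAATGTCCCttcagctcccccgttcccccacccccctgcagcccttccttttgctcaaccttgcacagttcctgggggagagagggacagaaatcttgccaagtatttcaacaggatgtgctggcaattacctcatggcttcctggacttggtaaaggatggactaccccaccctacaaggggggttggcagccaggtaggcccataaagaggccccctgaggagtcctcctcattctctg

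With the last base before the start as position -1, the kB pattern begins at -89 in Ccl20, at -68 in Il6 and at -242 in Lcn2. In Cxcl10 it begins at -187, -128 and -127, the last 2 matches overlapping, and the interferon pattern begins at -243. In Ifit3 the interferon pattern begins at -44. Of 27457 such windows, 1245 (4.53%) hold the kB pattern and 902 (3.29%) the interferon pattern. Among the 7427 windows of genes tested here, 426 (5.74%) hold the kB pattern and 200 (2.69%) the interferon pattern. The kB pattern was in 4 of 13 windows of the 15 largest falls (30.8%) and in 3 of 11 windows of the 15 largest rises (27.3%). The interferon pattern was in 2 of 13 (15.4%) and 0 of 11. All windows shown hold a match, whereas most windows of these falls and rises hold none. Among the gene lists used below the kB pattern was in 7 of 13 windows of chemokine genes (53.8%) and 3 of 11 of inflammatory cytokines (27.3%). The interferon pattern was in 10 of 15 windows of type I interferon response genes (66.7%). A match describes the letters of a window and nothing more.

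The remaining large falls include several surface receptors. Clec4e, which encodes the C-type lectin receptor Mincle, was 28.0-fold lower at 24 h (95% interval 22.7 to 34.6; limma adjusted p = 7.76e-11), and Olr1, which encodes the receptor LOX-1 for oxidized lipoprotein, was 27.0-fold lower at 24 h (95% interval 23.6 to 31.0; limma adjusted p = 2.7e-12). Ccrl2, a non-signalling receptor that binds chemerin, was 32.5-fold lower at 24 h (95% interval 28.7 to 36.7; limma adjusted p = 1.21e-12). The early activation marker Cd69 averaged 9.76 ± 0.09 at 24 h and 14.18 ± 0.11 at 6 h (SD, n = 3 each), and Hcar2, the niacin receptor gene, averaged 8.74 ± 0.21 at 24 h and 12.83 ± 0.07 at 6 h (SD, n = 3 each). Cxcl11, which encodes a further Cxcr3 ligand, was 17.5-fold lower at 24 h (95% interval 13.7 to 22.5; limma adjusted p = 6.65e-10). Slc40a1, which encodes the iron exporter ferroportin, was 17.3-fold lower at 24 h (95% interval 15.1 to 19.8; limma adjusted p = 6.04e-12). Cmpk2, an interferon-induced nucleotide kinase gene of mitochondria, was 22.4-fold lower, and the probe annotated to Tbc1d17, a regulator of Rab GTPases, 39.8-fold lower (limma adjusted p = 1.07e-10 and 2.61e-12). The small Maf factor gene Maff, above background on 2 of 3 arrays at 24 h, was 18.3-fold lower (limma adjusted p = 4.85e-10), a log2 fold change of -4.20 that was -3.38 without background correction. Frk, which encodes a kinase related to Src, was above background on none of the 3 aSCM 24 h arrays and was at least 14.1-fold lower at 24 h (limma adjusted p = 3.2e-10), and its log2 fold change of -4.09 was -3.13 in the authors' normalized table. The rule that chose the 15 genes required that their aSCM arrays do not overlap.

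**Figure D2:**
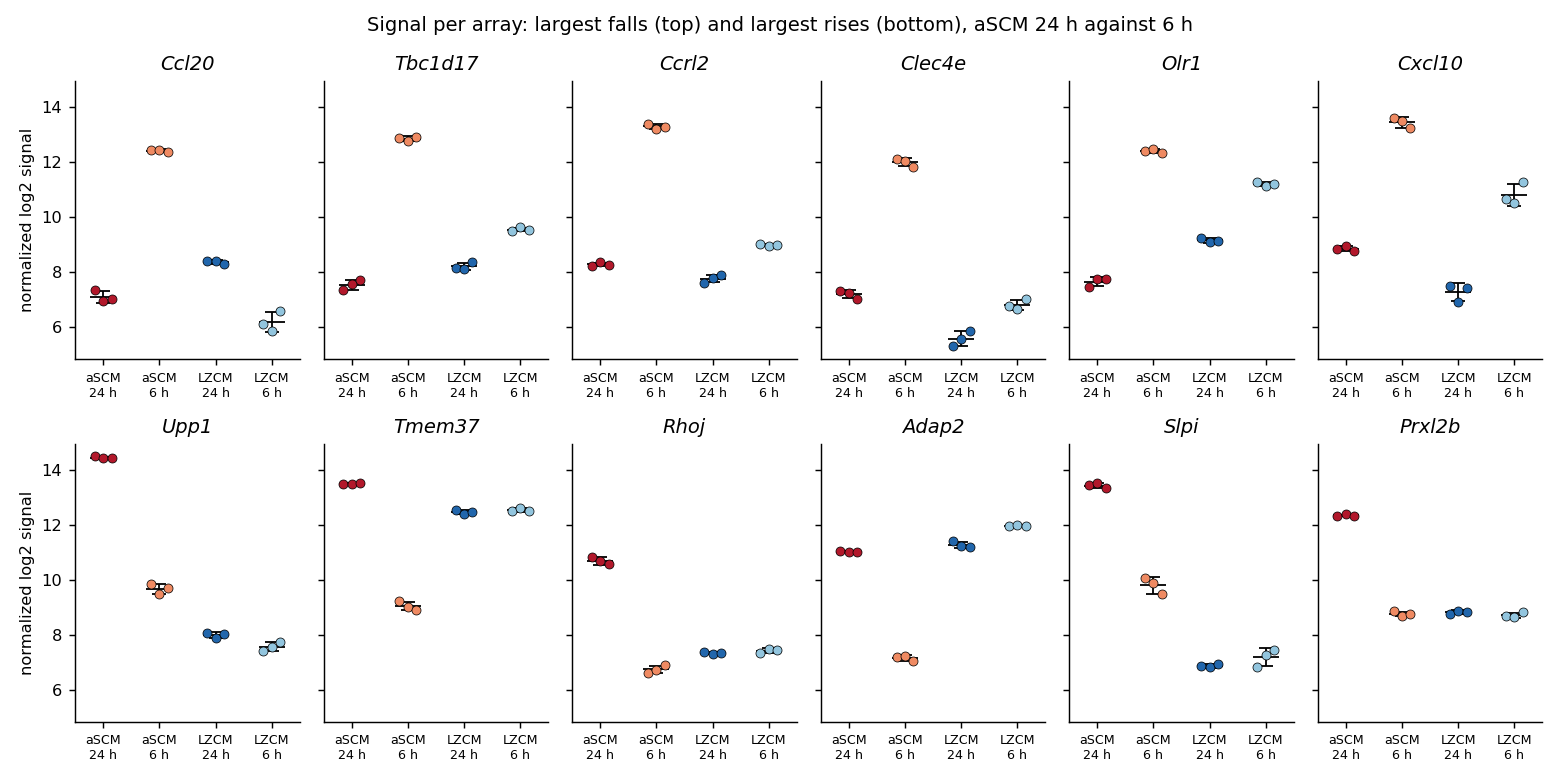
Normalized log2 signal (vertical axis) of the 6 largest falls (top row) and the 6 largest rises (bottom row) between aSCM 24 h and aSCM 6 h, with 1 point per array in each of the 4 groups and a line and bar for the mean and SD of 3 arrays. The genes were chosen by this difference, so the lack of overlap in aSCM is by selection; Ccl20 averaged 7.11 at 24 h and 12.43 at 6 h in aSCM, against 8.38 and 6.20 in LZCM.

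Inflammatory cytokine genes mostly fell. Of 20 listed genes 17 were tested, with 2 called higher, 13 called lower and 2 not called, and their median log2 fold change was -2.08 in aSCM and -0.32 in LZCM. A listed gene enters such counts only if its probe passed the background filter, which a gene high at 1 time passes more easily, so the counts describe the tested genes. Of the 17, 9 were above background on all 12 arrays, and 5 of these 9 were called lower. Tnf, which encodes tumour necrosis factor, read 9.17, 8.92 and 8.78 on the aSCM 24 h arrays, against 11.22, 10.91 and 10.99 on the aSCM 6 h arrays. The times do not overlap, and the signal was 4.23-fold lower at 24 h (95% interval 3.49 to 5.13; limma adjusted p = 2.59e-08). Il1a, which encodes interleukin 1 alpha, was 3.25-fold lower at 24 h (95% interval 2.49 to 4.23; limma adjusted p = 2.98e-06), from means of 13.60 ± 0.17 at 24 h and 15.29 ± 0.08 at 6 h (SD, n = 3 each). The 6 h mean of Il1a lies near the end of the scale. The 3 colony-stimulating factors measured fell together. Csf1, which sustains microglia, was 7.87-fold lower, Csf2 6.61-fold lower and Csf3 5.69-fold lower (limma adjusted p = 3.08e-11, 9.12e-09 and 2.41e-08). Il23a, a subunit of interleukin 23, was 10.1-fold lower, a log2 fold change of -3.34 that was -2.71 without background correction. Ifnb1, the interferon-beta gene, averaged 5.83 ± 0.34 at 24 h and 8.20 ± 0.19 at 6 h (SD, n = 3 each) and was above background on 1 of 3 arrays at 24 h and on 3 of 3 at 6 h. Lif, a cytokine of the interleukin 6 family, was above background on 0 of 3 arrays at 24 h and was at least 2.72-fold lower at 24 h (limma adjusted p = 1.38e-07).

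A minority of the cytokine genes were higher or not called. Il10, which encodes an anti-inflammatory cytokine, read 11.63, 11.80 and 11.60 on the aSCM 24 h arrays, against 10.40, 10.24 and 10.46 on the aSCM 6 h arrays. The arrays at 24 h were all above those at 6 h, with a signal 2.48-fold higher at 24 h (95% interval 2.15 to 2.87; limma adjusted p = 1.37e-07). Il18, which encodes a cytokine that caspase 1 activates, was 1.72-fold higher at 24 h (95% interval 1.44 to 2.06; limma adjusted p = 8.24e-05). Il1b, the interleukin 1 beta gene, read 15.53, 15.43 and 15.50 on the aSCM 24 h arrays, against 15.53, 15.50 and 15.55 on the aSCM 6 h arrays. These values overlap and lie at the highest end of the scale, where a difference can be hidden, and no difference was called (-0.04 on the log2 scale, limma adjusted p = 0.882). The receptor antagonist gene Il1rn averaged 11.41 ± 0.01 at 24 h and 11.32 ± 0.11 at 6 h (SD, n = 3 each), a difference of 0.09 that was not called (limma adjusted p = 0.411).

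Chemokine genes gave a mixed picture, with 3 called higher, 12 called lower and 2 not called among 17 tested of 20 listed and a median log2 fold change of -1.02 in aSCM and -0.07 in LZCM. Besides Ccl20, Cxcl10 and Cxcl11, the neutrophil attractant gene Cxcl2 was 5.53-fold lower at 24 h (95% interval 4.31 to 7.11; limma adjusted p = 6.08e-08), and Ccl4, which encodes a chemokine that attracts monocytes and lymphocytes, was 5.45-fold lower at 24 h (95% interval 4.24 to 7.003; limma adjusted p = 6.68e-08). Both 6 h means, 15.54 ± 0.04 and 15.52 ± 0.03 (SD, n = 3 each), lie near the end of the scale. Ccl5 was 4.54-fold lower at 24 h (95% interval 3.92 to 5.25; limma adjusted p = 1.66e-09). Ccl22 was above background on 3 of 3 arrays at 6 h and on 0 of 3 at 24 h, and was at least 2.66-fold lower at 24 h (limma adjusted p = 1.28e-06). Ccl7, which attracts monocytes, read 14.90, 15.01 and 15.14 on the aSCM 24 h arrays, against 14.23, 14.04 and 14.33 on the aSCM 6 h arrays. It was the member with the largest rise, with a signal 1.76-fold higher at 24 h (95% interval 1.34 to 2.31; limma adjusted p = 0.00162). The monocyte attractant gene Ccl2 averaged 15.19 ± 0.08 at 24 h and 14.84 ± 0.02 at 6 h (SD, n = 3 each), and its call as higher (0.35 on the log2 scale, limma adjusted p = 0.00792) ended with 75th percentile scaling, cyclic loess and the unprocessed deposited values. The 24 h signals of Ccl7 and Ccl2 lie near the end of the scale.

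**Figure D3:**
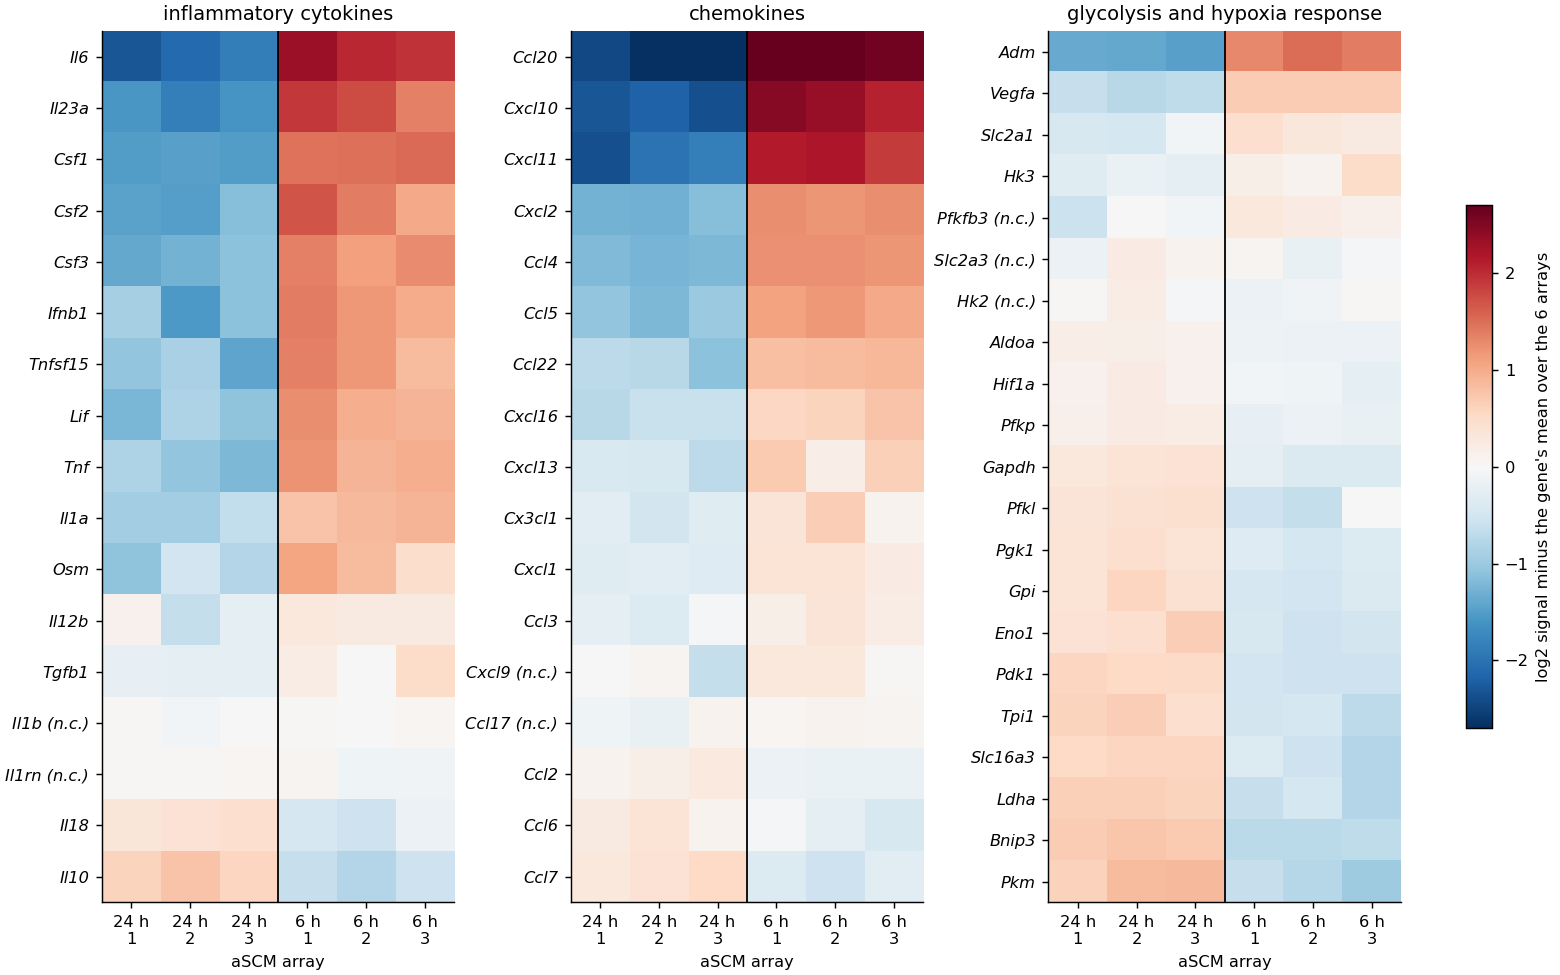
Normalized log2 signal of each gene on the 6 aSCM arrays, as the difference from the gene's own mean over these arrays (colour bar, log2 units), for the tested genes of 3 lists, with the 24 h arrays left of the 6 h arrays and genes ordered by fold change (n.c., not called). Most cytokine and chemokine genes are blue at 24 h and red at 6 h, Il10 and Ccl7 are the reverse, and most genes of glycolysis are weakly red at 24 h.

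Genes of the NF-kB pathway and of its feedback inhibitors fell where they were called. Of 18 listed genes 13 were tested, with 0 called higher, 11 called lower and 2 not called, and the median log2 fold change was -0.93 in aSCM and -0.57 in LZCM. Nfkb1, which encodes the p105 precursor and p50 subunit, read 8.31, 8.32 and 8.44 on the aSCM 24 h arrays, against 10.20, 10.19 and 10.40 on the aSCM 6 h arrays. No 24 h array reached a 6 h array, and the signal was 3.76-fold lower at 24 h (95% interval 3.33 to 4.23; limma adjusted p = 1e-09). Nfkb2 was 3.64-fold lower and Rela, the p65 subunit gene, 1.91-fold lower (limma adjusted p = 1.69e-09 and 5.4e-07). Among the inhibitors, Nfkbia, which encodes IkB-alpha, was 1.96-fold lower at 24 h (95% interval 1.73 to 2.23; limma adjusted p = 5.97e-07), and Zfp36, whose product destabilizes cytokine messages, was 1.84-fold lower (limma adjusted p = 6.98e-07). Ikbke and Tnip1 were not called (log2 fold changes 0.05 and -0.13, limma adjusted p = 0.724 and 0.204), and Tnip1 was called lower with cyclic loess and without aSCM 6 h replicate 3. In LZCM 12 of the 13 genes were called lower at 24 h, where 18.0% of all probes were. The called differences of the time effects were more negative in aSCM for 6 genes and more positive for 2. Nfkbia fell by 0.89 on the log2 scale in LZCM, and its difference was not called (-0.08, limma adjusted p = 0.617).

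Receptors and signalling proteins of the Toll-like pathway moved in both directions, with 6 called higher, 7 called lower and 5 not called among 18 tested of 26 listed and a median log2 fold change of 0.13 in aSCM and -0.51 in LZCM. Tlr2, the receptor named in the title of the series, read 13.63, 13.68 and 13.68 on the aSCM 24 h arrays, against 14.58, 14.69 and 14.50 on the aSCM 6 h arrays. The times do not overlap, and Tlr2 was 1.90-fold lower at 24 h (95% interval 1.70 to 2.13; limma adjusted p = 3.49e-07). Over time in LZCM Tlr2 fell by 0.82 on the log2 scale (limma adjusted p = 4.25e-06), and no difference between the media was called, at -0.11 ± 0.11 (SE; limma adjusted p = 0.432). Tlr4, the endotoxin receptor gene, read 9.20, 9.18 and 9.21 on the aSCM 24 h arrays, against 7.61, 7.56 and 7.74 on the aSCM 6 h arrays. It moved the other way, with a signal 2.94-fold higher at 24 h (95% interval 2.63 to 3.29; limma adjusted p = 2.89e-09). Tlr6, a partner of Tlr2, was 2.498-fold higher at 24 h (95% interval 2.20 to 2.84; limma adjusted p = 3.96e-08), and the adaptor gene Myd88 was 1.70-fold higher at 24 h (95% interval 1.51 to 1.90; limma adjusted p = 1.92e-06). Irak3, which encodes a kinase-like inhibitor of the pathway, was 2.13-fold higher, while Irak2 was 5.28-fold lower (limma adjusted p = 1.32e-06 and 3.26e-10). Cd14, the co-receptor gene, was high at both times, at 15.05 ± 0.08 at 24 h and 15.32 ± 0.08 at 6 h (SD, n = 3 each), and was 1.21-fold lower at 24 h (95% interval 1.06 to 1.38; limma adjusted p = 0.0142). Both means of Cd14 lie near the end of the scale, where a difference can be hidden.

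The 15 tested immediate early genes, of 19 listed, comprised 2 called higher, 11 called lower and 2 not called, with a median log2 fold change of -1.25 in aSCM and -0.03 in LZCM. Atf3, a stress-induced transcription factor gene known to limit cytokine genes in mouse macrophages, read 8.37, 8.28 and 8.27 on the aSCM 24 h arrays, against 11.91, 11.99 and 11.92 on the aSCM 6 h arrays. The 24 h arrays lie well below the 6 h arrays, and the signal was 12.4-fold lower at 24 h (95% interval 11.2 to 13.7; limma adjusted p = 2.52e-12). Junb was 4.48-fold lower, Myc 3.09-fold lower and Egr2 3.15-fold lower (limma adjusted p = 1.07e-09, 2.52e-09 and 1.1e-09). Fos, a partner of the Jun proteins, was 1.73-fold higher at 24 h (95% interval 1.54 to 1.95; limma adjusted p = 2.1e-06), and the phosphatase gene Dusp1 was 1.46-fold higher at 24 h (95% interval 1.30 to 1.65; limma adjusted p = 4.61e-05).

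Brakes on cytokine signalling also moved in both directions. Among 17 tested of 20 listed genes there were 3 called higher, 11 called lower and 3 not called, and the median log2 fold change was -0.33 in aSCM and 0.00 in LZCM. Of the 17, 13 were above background on all 12 arrays, and 7 of these 13 were called lower. Socs1, an inhibitor of interferon receptor signalling, read 6.75, 6.61 and 6.22 on the aSCM 24 h arrays, against 8.82, 8.68 and 8.73 on the aSCM 6 h arrays. Its arrays do not overlap, and it was 4.64-fold lower at 24 h (95% interval 3.77 to 5.72; limma adjusted p = 3.13e-08). Socs3, which limits interleukin 6 signalling, was 1.63-fold lower at 24 h (95% interval 1.38 to 1.93; limma adjusted p = 0.000105), from means of 8.93 ± 0.04 at 24 h and 9.64 ± 0.07 at 6 h (SD, n = 3 each). Cish was above background on no array at 24 h and was at least 3.96-fold lower at 24 h (limma adjusted p = 5.91e-09), with a log2 fold change of -2.31 that was -1.52 with unprocessed deposited values. Ptpn6, which encodes the phosphatase SHP-1, read 14.15, 13.95 and 14.07 on the aSCM 24 h arrays, against 11.72, 11.62 and 11.53 on the aSCM 6 h arrays. It rose, with every 24 h array above every 6 h array and a signal 5.40-fold higher at 24 h (95% interval 4.77 to 6.12; limma adjusted p = 2.09e-10).

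**Figure D4:**
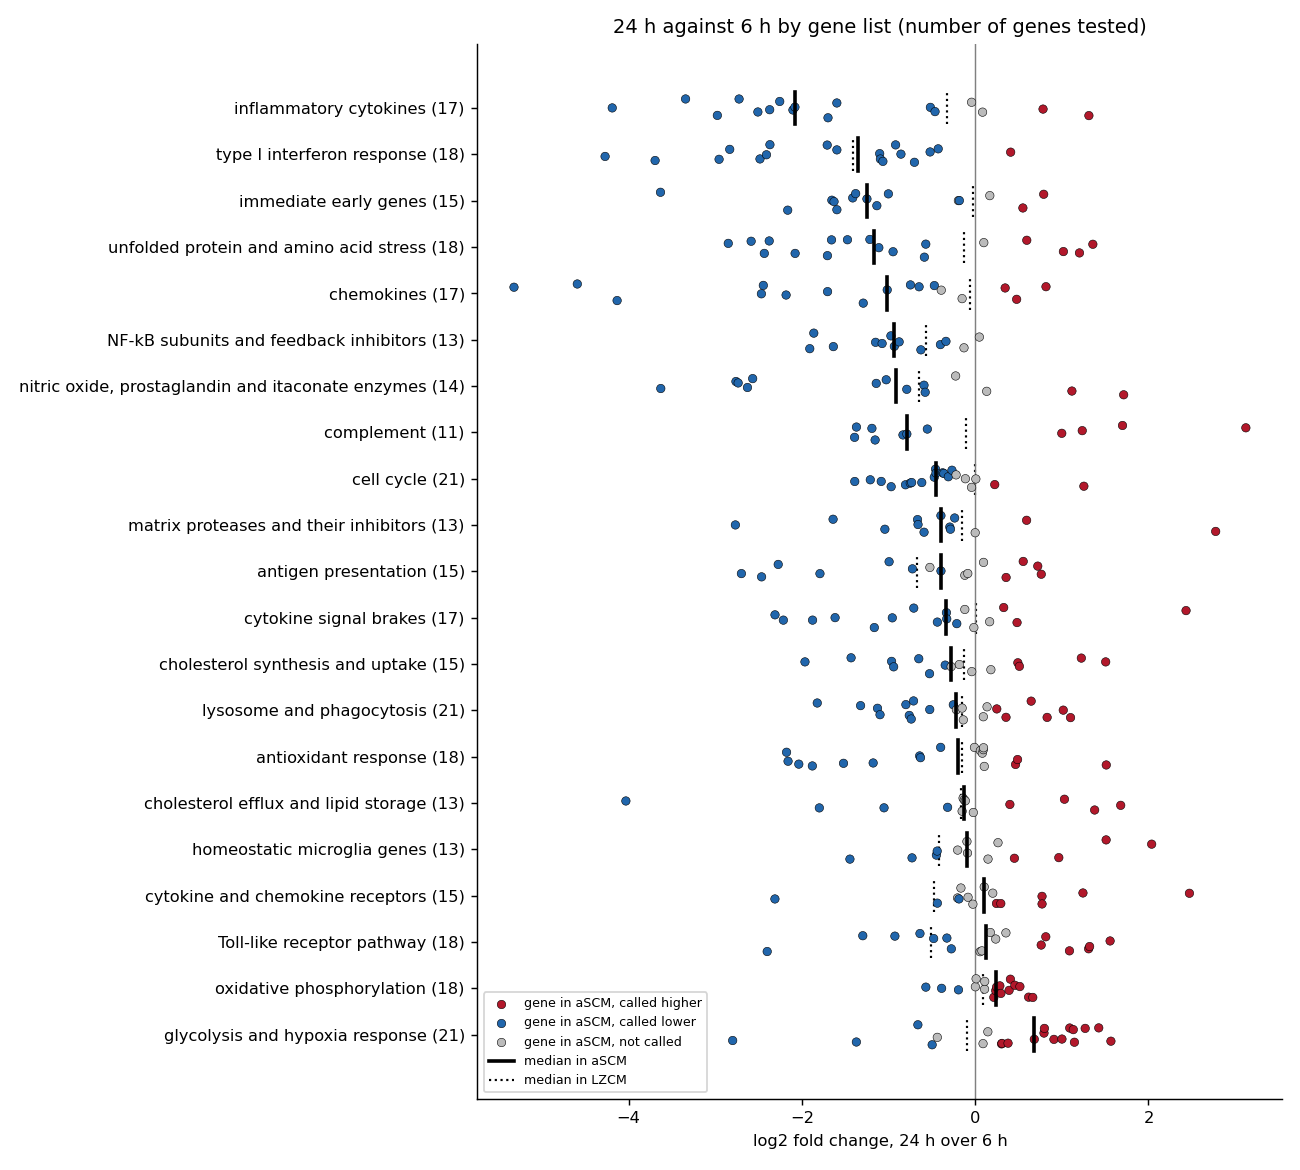
Log2 fold change of 24 h over 6 h in aSCM (horizontal axis) for each tested gene of 21 lists (rows, with the number of genes tested), coloured by the call at a limma adjusted p under 0.05; a solid line marks the list's median in aSCM and a dotted line its median in LZCM. Cytokine genes lie furthest left, with a median of -2.08, and glycolysis furthest right, with a median of 0.68, against 0.03 over all tested probes.

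Interferon-induced genes fell in nearly every case. Of 24 listed genes 18 were tested, with 1 called higher and 17 called lower, and the median log2 fold change was -1.35 in aSCM and -1.41 in LZCM. Besides Ifit3, Ifit2 was 12.9-fold lower (limma adjusted p = 2.65e-09), and its log2 fold change of -3.69 was -2.89 without background correction. The antiviral GTPase gene Mx2 was 7.76-fold lower at 24 h (95% interval 6.28 to 9.59; limma adjusted p = 2.94e-09), and Oasl, of the oligoadenylate synthetase family, was 5.60-fold lower at 24 h (95% interval 4.66 to 6.71; limma adjusted p = 3.65e-09). Gbp5, a guanylate-binding protein gene, was 7.13-fold lower at 24 h (95% interval 6.06 to 8.38; limma adjusted p = 4.64e-10). Usp18, which encodes an enzyme that removes the ubiquitin-like protein Isg15 and damps the interferon receptor, read 10.78, 10.77 and 10.65 on the aSCM 24 h arrays, against 11.40, 11.25 and 11.10 on the aSCM 6 h arrays. The times do not overlap, and the difference was small, 1.43-fold lower at 24 h (95% interval 1.202 to 1.71; limma adjusted p = 0.00189). At 24 h it was still higher in aSCM than in LZCM, by 4.08 (limma adjusted p = 4.22e-11) on the log2 scale. Bst2, which encodes tetherin, was the 1 member called higher (0.41, limma adjusted p = 0.0122), and that call ended with cyclic loess, with unprocessed deposited values, without aSCM 6 h replicate 3 and without aSCM 24 h replicate 1. In LZCM 15 of these 18 genes were also called lower at 24 h, where 18.0% of all probes were. The time effects in the media differed for 14 of the 18, more negative in aSCM for 10 and more positive for 4.

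Enzymes of nitric oxide, prostaglandin and itaconate synthesis were largely lower, with 2 called higher, 10 called lower and 2 not called among 14 tested of 15 listed and a median log2 fold change of -0.91 in aSCM and -0.65 in LZCM. Of the 14, 8 were above background on all 12 arrays, and 6 of these 8 were called lower. Nos2, which encodes inducible nitric oxide synthase, read 8.40, 8.67 and 9.06 on the aSCM 24 h arrays, against 11.36, 11.16 and 11.82 on the aSCM 6 h arrays. The groups are apart, and Nos2 was 6.66-fold lower at 24 h (95% interval 4.88 to 9.10; limma adjusted p = 1.67e-07). Acod1, whose enzyme makes itaconate, was 12.4-fold lower at 24 h (95% interval 9.54 to 16.05; limma adjusted p = 3e-09), from means of 10.16 ± 0.01 at 24 h and 13.79 ± 0.09 at 6 h (SD, n = 3 each). Ptges, the inducible prostaglandin E synthase gene, was 6.78-fold lower at 24 h (95% interval 5.48 to 8.39; limma adjusted p = 5.48e-09), and the arginase gene Arg1, an enzyme that competes for the substrate of Nos2, was 5.93-fold lower at 24 h (95% interval 5.14 to 6.85; limma adjusted p = 3.95e-10). Ptgs2, which encodes cyclooxygenase 2, was bright at both times, at 13.90 ± 0.12 at 24 h and 15.04 ± 0.07 at 6 h (SD, n = 3 each), and was 2.21-fold lower at 24 h (95% interval 1.80 to 2.71; limma adjusted p = 9.84e-06). The 6 h mean of Ptgs2 lies near the end of the scale. Rises were called for the phospholipase gene Pla2g4a, which was 3.28-fold higher, and the thromboxane synthase gene Tbxas1, which was 2.17-fold higher (limma adjusted p = 7.13e-08 and 6.74e-08).

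Genes of the stress responses to misfolded protein and to amino acid shortage moved in both directions. Among 18 tested of 20 listed genes there were 4 called higher, 13 called lower and 1 not called, with a median log2 fold change of -1.16 in aSCM and -0.13 in LZCM. Atf4, the transcription factor of the amino acid response, was 5.40-fold lower at 24 h (95% interval 4.83 to 6.05; limma adjusted p = 1.07e-10). Its known targets fell as well, with Slc7a5 6.00-fold lower, Trib3 5.20-fold lower and Asns 4.22-fold lower (limma adjusted p = 8.54e-11, 1.24e-09 and 1.24e-09). Chac1, which encodes an enzyme that degrades glutathione, was 7.21-fold lower (limma adjusted p = 5.31e-10), a log2 fold change of -2.85 that was -2.12 in the authors' normalized table. The 4 genes called higher encode proteins that act in the endoplasmic reticulum. They are the chaperone genes Hspa5, 1.51-fold higher, and Hsp90b1, 2.30-fold higher, with Pdia4, 2.03-fold higher, and Creld2, 2.56-fold higher (limma adjusted p = 4.6e-06, 2.27e-08, 1.65e-07 and 1.51e-08). Each of these 4 was also called higher at 24 h in LZCM, and for Pdia4 and Creld2 no difference between the media was called (0.07 and 0.26, limma adjusted p = 0.651 and 0.069). Other listed genes of the response to misfolded protein did not rise in aSCM. Dnajb9, Herpud1 and Xbp1 were called lower, and Sdf2l1 was not called (0.10 on the log2 scale).

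Antioxidant genes, many of them targets of the factor Nrf2, counted 3 called higher, 9 called lower and 6 not called among 18 tested of 20 listed, with a median log2 fold change of -0.20 in aSCM and -0.16 in LZCM. The cystine transporter gene Slc7a11 was 4.52-fold lower at 24 h (95% interval 3.90 to 5.24; limma adjusted p = 1.78e-09) and Txnrd1, which encodes thioredoxin reductase, 4.10-fold lower at 24 h (95% interval 3.69 to 4.56; limma adjusted p = 2.33e-10). Both subunits of the enzyme that starts glutathione synthesis fell, Gclc with a log2 fold change of -1.88 and Gclm with one of -1.52 (limma adjusted p = 1.12e-09 and 1.08e-08). Sqstm1 was measured by 3 probes that disagreed, from -2.16 to 0.215 in log2 fold change. The superoxide dismutase gene Sod2 averaged 13.80 ± 0.0048 at 24 h and 13.70 ± 0.09 at 6 h (SD, n = 3 each) and was not called (0.09, limma adjusted p = 0.406). At 24 h Sod2 was higher in aSCM than in LZCM by 4.01 (limma adjusted p = 1.01e-11) on the log2 scale. Gpx1, a glutathione peroxidase gene, was 2.85-fold higher at 24 h (95% interval 2.59 to 3.15; limma adjusted p = 1.32e-09).

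The largest rises included a protease inhibitor, receptors, an iron-binding protein and enzymes. Upp1, which encodes uridine phosphorylase 1, rose furthest. Its probe read 14.50, 14.44 and 14.44 on the aSCM 24 h arrays, against 9.85, 9.50 and 9.70 on the aSCM 6 h arrays. The arrays at 24 h lie far above those at 6 h, with a signal 27.4-fold higher at 24 h (95% interval 23.6 to 31.9; limma adjusted p = 4.88e-12). Slpi, an inhibitor of neutrophil elastase, read 13.45, 13.52 and 13.35 on the aSCM 24 h arrays, against 10.06, 9.89 and 9.48 on the aSCM 6 h arrays. Again the times are apart, and Slpi was 12.4-fold higher at 24 h (95% interval 9.72 to 15.7; limma adjusted p = 1.56e-09). Lcn2, which encodes a lipocalin that binds iron-carrying siderophores, read 14.97, 14.94 and 15.04 on the aSCM 24 h arrays, against 12.12, 11.84 and 11.90 on the aSCM 6 h arrays. Its 24 h values lie near the end of the scale, and Lcn2 was 8.17-fold higher at 24 h (95% interval 6.11 to 10.9; limma adjusted p = 3.7e-08). C3ar1, the receptor gene for the complement fragment C3a, read 10.67, 10.80 and 10.71 on the aSCM 24 h arrays, against 7.64, 7.52 and 7.65 on the aSCM 6 h arrays. The 6 h values are low and the 24 h values high without overlap, and C3ar1 was 8.72-fold higher at 24 h (95% interval 7.76 to 9.79; limma adjusted p = 2.05e-11).

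Other large rises were those of Tmem37, a membrane protein gene, 21.7-fold higher at 24 h (95% interval 19.2 to 24.5; limma adjusted p = 2.52e-12), and of Adap2, which encodes a regulator of Arf GTPases, 14.5-fold higher at 24 h (95% interval 12.99 to 16.3; limma adjusted p = 3.11e-12). Both were low at 6 h in aSCM, at 9.07 ± 0.15 and 7.18 ± 0.11 (SD, n = 3 each). In LZCM at 24 h they stood at 12.48 ± 0.07 and 11.29 ± 0.11 (SD, n = 3 each). The log2 difference between aSCM and LZCM at 24 h, which uses the same aSCM 24 h arrays, was 1.02 (limma adjusted p = 2.67e-07) for Tmem37 and -0.25 (limma adjusted p = 0.0136) for Adap2. The small GTPase gene Rhoj rose by a log2 fold change of 3.95, which was 3.31 with unprocessed deposited values. Il21r, a cytokine receptor gene, read 9.44, 9.37 and 9.21 on the aSCM 24 h arrays, against 6.34, 6.28 and 6.26 on the aSCM 6 h arrays. It too was low at 6 h, and its log2 fold change of 3.05 was 2.22 with the deposited values. Tnfrsf8, which encodes CD30, rose by 3.28 (2.48 with the deposited values), and the Ras-association gene Rassf2 by 2.99 (2.35). Prxl2b, a thioredoxin-fold enzyme gene, was 11.9-fold higher, the adaptor gene Sla 11.0-fold higher and Dse, which encodes dermatan sulfate epimerase, 7.77-fold higher. Gas7 was 7.62-fold higher, and Naaa, which encodes a lysosomal amidase for fatty acid ethanolamides, 7.43-fold higher. The limma adjusted p of these last 8 genes was at most 1.53e-09.

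Genes of glycolysis and of the response to low oxygen rose more often than they fell, with 14 called higher, 4 called lower and 3 not called among 21 tested of 24 listed. The median log2 fold change was 0.68 in aSCM and -0.10 in LZCM. Ldha, which encodes the subunit of lactate dehydrogenase that favours lactate, read 14.28, 14.28 and 14.24 on the aSCM 24 h arrays, against 13.01, 13.15 and 12.83 on the aSCM 6 h arrays. All 24 h arrays were above all 6 h arrays, and Ldha was 2.41-fold higher at 24 h (95% interval 2.12 to 2.74; limma adjusted p = 5.33e-08). Along the pathway, the isomerase gene Gpi was 1.88-fold higher, Tpi1 2.19-fold higher, Gapdh 1.60-fold higher, Pgk1 1.74-fold higher, Eno1 2.00-fold higher and Pkm 2.96-fold higher (limma adjusted p of at most 5.73e-06). The lactate exporter gene Slc16a3 was 2.21-fold higher at 24 h (95% interval 1.87 to 2.61; limma adjusted p = 1.45e-06). The 4 genes that fell were Adm, which encodes the vasodilator adrenomedullin and was 6.96-fold lower at 24 h (95% interval 6.10 to 7.95; limma adjusted p = 1.16e-10), the growth factor gene Vegfa, 2.59-fold lower, the glucose transporter gene Slc2a1, 1.58-fold lower, and the hexokinase gene Hk3, 1.41-fold lower (limma adjusted p of at most 0.00149 for these 3). At 24 h 18 of the 21 genes were higher in aSCM than in LZCM and 2 were lower. Over all tested probes 28.9% were higher and 27.4% lower in this comparison, which shares the aSCM 24 h arrays with the time effect.

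Genes of oxidative phosphorylation that rose did so by small amounts, with 11 called higher, 3 called lower and 4 not called among 18 tested of 22 listed and a median log2 fold change of 0.24 in aSCM and 0.09 in LZCM. The largest rise was that of Ndufs1, a subunit of complex I, which averaged 11.58 ± 0.05 at 24 h and 10.92 ± 0.04 at 6 h (SD, n = 3 each) and was 1.59-fold higher at 24 h (95% interval 1.42 to 1.77; limma adjusted p = 6.27e-06). All 4 subunits of succinate dehydrogenase were called higher, Sdha by a log2 fold change of 0.46, Sdhb by 0.52, Sdhc by 0.39 and Sdhd by 0.41 (limma adjusted p of at most 0.000577). With unprocessed deposited values 4 of the 18 were called higher. None of the 18 was higher in aSCM than in LZCM at 24 h, where 7 were lower, against 28.9% higher and 27.4% lower over all tested probes.

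All 11 tested complement genes, of 17 listed, were called, with 4 higher and 7 lower and a median log2 fold change of -0.79 in aSCM and -0.11 in LZCM. The 3 chains of C1q fell together. C1qa averaged 13.45 ± 0.04 at 24 h and 14.60 ± 0.04 at 6 h (SD, n = 3 each) and was 2.23-fold lower at 24 h (95% interval 2.02 to 2.46; limma adjusted p = 1.29e-08), C1qb was 1.73-fold lower and C1qc 1.78-fold lower (limma adjusted p = 4.25e-07 and 1.83e-06). The C1 protease genes moved the opposite way, with C1r 3.25-fold higher at 24 h (95% interval 2.77 to 3.81; limma adjusted p = 3.03e-08) and C1s 2.35-fold higher at 24 h (95% interval 2.00 to 2.77; limma adjusted p = 5.9e-07). Serping1, their inhibitor, was 2.62-fold lower at 24 h (95% interval 2.34 to 2.94; limma adjusted p = 8.71e-09). Itgam, a chain of complement receptor 3 and a microglia marker, was 2.00-fold higher at 24 h (95% interval 1.80 to 2.22; limma adjusted p = 7.35e-08).

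Genes of lysosomes and phagocytosis were split, with 6 called higher, 10 called lower and 5 not called among 21 tested of 27 listed and a median log2 fold change of -0.22 in aSCM and -0.16 in LZCM. The protease gene Ctsd averaged 12.60 ± 0.10 at 24 h and 13.70 ± 0.27 at 6 h (SD, n = 3 each) and was 2.14-fold lower at 24 h (95% interval 1.79 to 2.56; limma adjusted p = 4.38e-06), and Hexa, a subunit of beta-hexosaminidase, was 2.18-fold lower at 24 h (95% interval 1.96 to 2.44; limma adjusted p = 4.15e-08). Fcgr1a, a high-affinity antibody receptor gene, was 2.02-fold higher at 24 h (95% interval 1.70 to 2.41; limma adjusted p = 7.81e-06), and Lgmn, which encodes an asparaginyl protease, was 2.14-fold higher at 24 h (95% interval 1.94 to 2.37; limma adjusted p = 1.91e-08). Genes known from resting microglia counted 4 called higher, 4 called lower and 5 not called among 13 tested of 22 listed, with a median log2 fold change of -0.09 in aSCM and -0.41 in LZCM. Of the 13, 10 were above background on all 12 arrays, and of these 10, 1 was called higher and 4 lower. Trem2, a lipid-sensing receptor gene, read 12.89, 12.76 and 12.70 on the aSCM 24 h arrays, against 14.16, 14.31 and 14.22 on the aSCM 6 h arrays. It was lower on every 24 h array, with a signal 2.72-fold lower at 24 h (95% interval 2.46 to 3.02; limma adjusted p = 2.94e-09). Cx3cr1 read 7.37, 7.49 and 7.31 on the aSCM 24 h arrays, against 5.77, 5.86 and 6.01 on the aSCM 6 h arrays. As no 6 h array was above background, its rise is a bound, at least 2.56-fold higher at 24 h (limma adjusted p = 1.5e-08), and the log2 fold change of 1.51 was 0.79 with unprocessed deposited values. Mertk, which encodes a receptor for dying cells, rose by 2.04 on the log2 scale (limma adjusted p = 5.12e-10), which was 1.44 with the deposited values. The purine receptor gene P2ry12 averaged 6.72 ± 0.14 at 24 h and 6.81 ± 0.30 at 6 h (SD, n = 3 each) and was not called (limma adjusted p = 0.586). Both means lie near the dim end, where a difference can be hidden. At 24 h P2ry12 differed between aSCM and LZCM by -2.77 (limma adjusted p = 3.49e-09) on the log2 scale.

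Antigen presentation genes counted 4 called higher, 7 called lower and 4 not called among 15 tested of 18 listed, with a median log2 fold change of -0.40 in aSCM and -0.67 in LZCM. The co-stimulatory genes Cd40 and Cd86 were 6.49-fold and 4.84-fold lower (limma adjusted p = 1.16e-10 and 1.16e-09), and the class II gene RT1-Da was 5.52-fold lower at 24 h (95% interval 4.35 to 7.02; limma adjusted p = 4.02e-08). Genes of the class I pathway moved in both directions. Psmb8, Psmb9 and Psmb10, which encode proteasome subunits, were 1.65-fold, 1.47-fold and 1.28-fold higher, with the call of Psmb10 ending with unprocessed deposited values (limma adjusted p of at most 0.0014). Of the partners in the peptide transporter, Tap2 was 1.70-fold higher and Tap1 1.65-fold lower (limma adjusted p = 9.77e-05 and 5.44e-07), while Tapbp and B2m were not called. Receptors for cytokines and chemokines counted 6 called higher, 3 called lower and 6 not called among 15 tested of 25 listed, with a median log2 fold change of 0.10 in aSCM and -0.47 in LZCM. The count called lower was 5 with cyclic loess and 1 with unprocessed deposited values, without aSCM 6 h replicate 2 or without aSCM 24 h replicate 2. Il4r, a receptor gene for interleukin 4, was 2.37-fold higher at 24 h (95% interval 1.98 to 2.84; limma adjusted p = 1.5e-06). Il6r, a subunit of the interleukin 6 receptor, rose by 2.47 on the log2 scale (limma adjusted p = 2.13e-09), which was 1.72 with unprocessed deposited values, and Cxcr4 was 4.96-fold lower at 24 h (95% interval 4.23 to 5.82; limma adjusted p = 2.16e-09). Genes of matrix proteases and their inhibitors counted 2 called higher, 10 called lower and 1 not called among 13 tested of 18 listed, with a median of -0.40 in aSCM and -0.15 in LZCM. Mmp9, which encodes gelatinase B, read 15.12, 15.02 and 15.08 on the aSCM 24 h arrays, against 12.64, 12.34 and 11.92 on the aSCM 6 h arrays. Its 24 h values lie near the end of the scale, and Mmp9 was 6.85-fold higher at 24 h (95% interval 5.41 to 8.67; limma adjusted p = 1.23e-08). Serpinb2, a plasminogen activator inhibitor gene, was 6.81-fold lower at 24 h (95% interval 5.42 to 8.56; limma adjusted p = 1.01e-08), and Mmp12 was 3.12-fold lower at 24 h (95% interval 2.56 to 3.79; limma adjusted p = 2.56e-07).

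Cell cycle genes mostly fell, with 2 called higher, 15 called lower and 4 not called among 21 tested of 26 listed and a median log2 fold change of -0.45 in aSCM and 0.00 in LZCM. Ccna2, which encodes cyclin A2, read 8.14, 8.31 and 8.06 on the aSCM 24 h arrays, against 9.51, 9.73 and 9.44 on the aSCM 6 h arrays. The times are apart, and Ccna2 was 2.62-fold lower at 24 h (95% interval 2.30 to 2.99; limma adjusted p = 3.37e-08). The mitotic kinase gene Plk1 was 2.31-fold lower at 24 h (95% interval 1.95 to 2.75; limma adjusted p = 1.19e-06), and Pcna, the replication clamp gene, was 1.96-fold lower at 24 h (95% interval 1.79 to 2.15; limma adjusted p = 3.39e-08). Tyms, which encodes thymidylate synthase, rose, 2.39-fold higher at 24 h (95% interval 2.01 to 2.83; limma adjusted p = 8.55e-07). Mcm2 was also called higher (0.23, limma adjusted p = 0.0111), a call that ended with cyclic loess and with unprocessed deposited values. At 24 h 19 of the 21 genes were lower in aSCM than in LZCM and 2 were higher, against 27.4% lower and 28.9% higher over all tested probes.

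In lipid metabolism the largest change was in Lpl, which encodes lipoprotein lipase. Its probe read 10.42, 10.61 and 10.23 on the aSCM 24 h arrays, against 14.47, 14.43 and 14.46 on the aSCM 6 h arrays. The 24 h arrays are far below the 6 h arrays, and Lpl was 16.4-fold lower at 24 h (95% interval 13.96 to 19.2; limma adjusted p = 2.97e-11). The cholesterol export gene Abcg1 and its regulator Nr1h3, which encodes LXR-alpha, rose, 3.20-fold and 2.60-fold higher (limma adjusted p = 9.97e-10 and 1.16e-07). Abca1, a further cholesterol export gene, did not rise and was not called (-0.15 on the log2 scale). It was called lower with cyclic loess, the authors' normalized table and a variance trend. The list of efflux and lipid storage genes counted 4 called higher, 4 called lower and 5 not called among 13 tested of 15 listed, with a median log2 fold change of -0.13 in aSCM and -0.16 in LZCM. Cyclic loess called 7 of them lower. Apoe, which encodes a lipid carrier and was bright at both times, was not called (-0.02, limma adjusted p = 0.845). Genes of cholesterol synthesis and uptake counted 4 called higher, 7 called lower and 4 not called among 15 tested of 22 listed, with a median of -0.28 in aSCM and -0.13 in LZCM, and Idi1, an isomerase gene early in the pathway, was 3.90-fold lower at 24 h (95% interval 3.49 to 4.37; limma adjusted p = 4.77e-10).

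The change over time in aSCM was next set against that in LZCM, the medium without added alpha-synuclein expression. Among the 4647 calls in LZCM, 302 rises and 228 falls reached 2-fold, and the times did not overlap for 49.2% of probes. The difference of the time effects, aSCM minus LZCM, was positive for 3451 called probes and negative for 3177, while cyclic loess gave 3007 and 3645. Of the 4121 probes higher at 24 h in aSCM, LZCM had 1035 called higher, 2351 not called and 735 called lower. Of the 3567 lower in aSCM, LZCM had 1019 called lower, 1937 not called and 611 called higher.

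Ccl20 had the largest difference. In LZCM it read 8.40, 8.43 and 8.30 on the LZCM 24 h arrays, against 6.12, 5.88 and 6.60 on the LZCM 6 h arrays. Its time effect there was 2.17 (limma adjusted p = 5.01e-07) on the log2 scale, with 1 of the 3 LZCM 6 h arrays not above background, opposite to that in aSCM, and the difference was -7.50 ± 0.22 (SE; limma adjusted p = 2.81e-10). The next largest negative differences were those of Gdf15, a stress-induced cytokine of the TGF-beta superfamily, Plpp3, a lipid phosphate phosphatase gene, Sfrp2, a secreted modulator of Wnt signals, and Ccn2, which encodes connective tissue growth factor. In aSCM Gdf15 was 16.4-fold lower at 24 h (95% interval 13.9 to 19.4; limma adjusted p = 4.93e-11), and in LZCM it was 0.61 (limma adjusted p = 0.000898) on the log2 scale. Plpp3 was 10.4-fold lower at 24 h (95% interval 9.05 to 12.02; limma adjusted p = 5.19e-11) in aSCM, against 1.24 (limma adjusted p = 8.6e-07) on the log2 scale in LZCM. For Sfrp2 the log2 fold changes were -3.80 in aSCM and 0.81 in LZCM, and for Ccn2 -3.61 and 0.79. Without background correction the aSCM values of Sfrp2 and Ccn2 were -3.09 and -2.97.

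The largest positive differences were those of Il21r, Adap2, Tmem37, Upp1 and Tnfrsf8. Il21r in LZCM read 8.52, 8.25 and 8.48 on the LZCM 24 h arrays, against 10.16, 9.83 and 10.10 on the LZCM 6 h arrays, the reverse of its order in aSCM, and the difference was 4.66 ± 0.15 (SE; limma adjusted p = 4.22e-10). Upp1 rose in both media, with 0.42 (limma adjusted p = 0.00509) on the log2 scale in LZCM. Of the 15 largest rises in aSCM, 2 were called higher and 6 lower with time in LZCM, and of the 15 largest falls 14 were called lower and 1, Ccl20, higher. At 24 h 14 of the 15 rises were above LZCM and 1, Adap2, was below. Of the 15 falls 9 were still above LZCM at 24 h and 5 were below. Over all tested probes 28.9% were higher in aSCM than in LZCM at 24 h and 27.4% were lower. The rises and falls were chosen with the same aSCM 24 h arrays, so these counts are partly fixed by the choice.

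**Figure D5:**
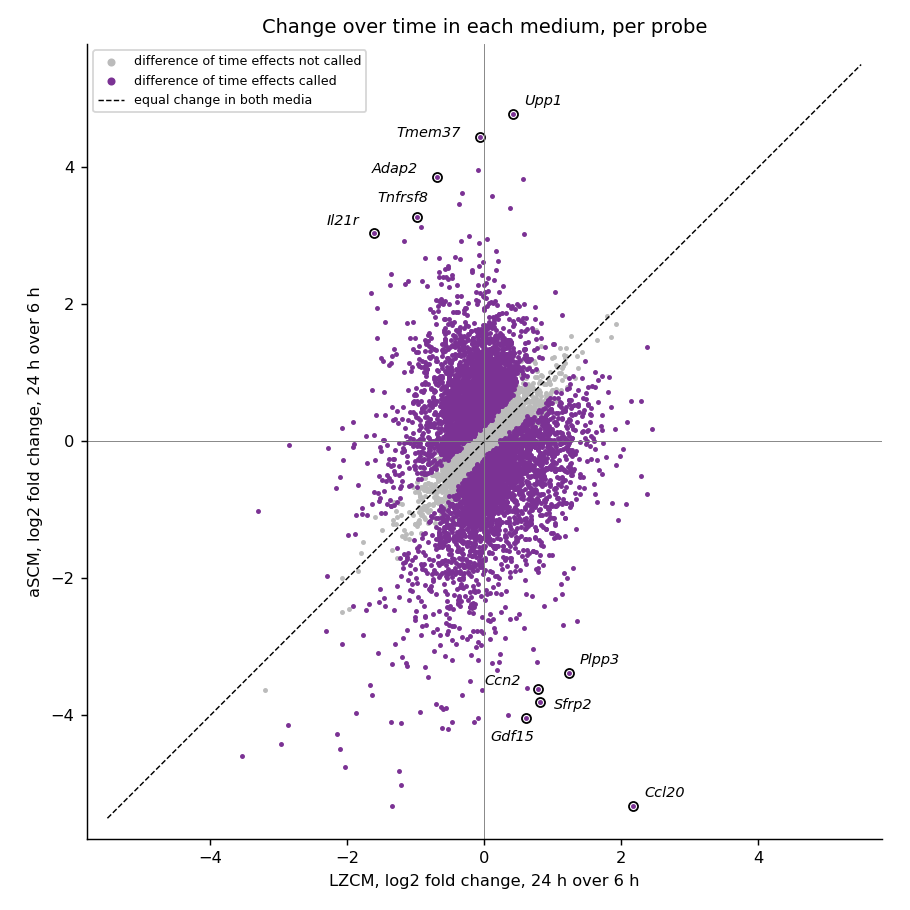
Log2 fold change of 24 h over 6 h in aSCM (vertical axis) and in LZCM (horizontal axis) for each of 13003 tested probes, in purple where the difference of the time effects was called; the dashed line marks equal change and circles mark the 5 largest positive and 5 largest negative differences. Ccl20 stands alone at the lower right, with -5.32 in aSCM and 2.17 in LZCM.

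Summed markers of other brain cells were higher at 24 h than at 6 h in LZCM. The astrocyte markers summed to 15747 to 17326 at LZCM 24 h and 7970 to 8219 at LZCM 6 h, those of the oligodendrocyte lineage to 31389 to 32808 and 8789 to 9567, and those of neurons to 5721 to 6293 and 3045 to 3494. The fibroblast and pericyte markers summed to 2117 to 2226 and 1140 to 1200, and the microglia and macrophage markers to 206380 to 219922 and 229409 to 236063. Of the 6 tested astrocyte markers 1 was called higher and 4 lower at 24 h in aSCM, against 5 higher in LZCM. Gfap, the intermediate filament gene of astrocytes, had a log2 fold change of -0.50 in aSCM and 2.28 in LZCM, a difference of -2.79 ± 0.13 (SE; limma adjusted p = 8.64e-09). Of the 9 tested markers of the oligodendrocyte lineage 2 were called higher and 3 lower in aSCM, against 5 higher and 1 lower in LZCM. Of the 9 tested neuronal markers 0 were called higher and 6 lower in aSCM, against 5 higher and 2 lower in LZCM. The part of these cells in the differences between the media was not tested.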

How the data were processed

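The series holds 12 Illumina rat bead arrays in 4 groups of 3. The deposited values are non-normalized log2 signals, per the labels, with the base inferred from maxima just under 16. R 2.9.1 was used upstream, per the submitters' processing notes. Neither chip layout nor scanner software is given, so chips were not fitted as batches. A second table deposited by the authors holds log2 values normalized between arrays, without centring of genes, and served as an alternative.

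Signals were returned to the linear scale, background-corrected (normexp, offset 16), quantile normalized and put on log2 again. A probe was above background at a one-sided p under 0.05 against a normal background fitted to the dim signals of its array. The 13003 probes above it on at least 3 arrays were tested, and 9520 were left out. One limma fit (3.58.1, R 4.3.3) of 4 group means used all 12 arrays, with 8 residual degrees of freedom and adjustment by Benjamini-Hochberg over all tested probes. The median standard error was 0.10 for a log2 fold change in aSCM and 0.142 for the difference of time effects, and array number limits this precision. Scripts were tested on simulated data.

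Probes were named from the platform annotation, updated by Entrez ID to RefSeq (GRCr8). Of 22523 probes 13793 had 1 symbol, 0 had several and 8730 were not named here. The brightest tested probe stood for a gene. The text names the 15 largest rises and falls with no overlap between the times in aSCM and every array of at least 1 time above background, the 5 largest differences from LZCM in each direction, and genes of the lists. The members and lists were chosen with earlier results of these data known. Of the listed entries 126 were not tested, 91 without a named probe here and 35 as too dim. Where a time was above background on no array, a fold is a lower bound, set on each dim array against the higher of the probe's own signal and the lowest signal above background. Replicate numbers were not taken to pair samples.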

Additional observations from a re-analysis of the deposited data

Results flagged for a closer look

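The change from 6 h to 24 h differed between aSCM and LZCM for 6628 probes by the limma test of the difference. Among the genes named as the largest rises in aSCM, the difference of the time effects, aSCM minus LZCM on the log2 scale, was 4.35 for Upp1, 4.50 for Tmem37, 4.04 for Rhoj, 4.56 for Adap2 and 3.95 for Slpi. It was 3.47 for Prxl2b, 3.82 for Sla, 4.25 for Tnfrsf8, 4.05 for C3ar1 and 4.66 for Il21r, and 2.44 for Lcn2, 3.22 for Rassf2, 2.92 for Dse, 3.27 for Gas7 and 2.97 for Naaa. All 15 were more positive in aSCM.

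Among the largest falls in aSCM the difference was -7.50 for Ccl20, -3.97 for Tbc1d17, -3.80 for Ccrl2, -3.57 for Clec4e and -2.72 for Olr1. It was -1.06 for Cxcl10, -2.39 for Cmpk2, -1.46 for Cd69, -2.12 for Ifit3 and -3.67 for Maff, and -3.57 for Il6, -1.26 for Cxcl11, -2.89 for Slc40a1, -2.73 for Hcar2 and -3.62 for Frk. The LZCM 24 h arrays were not above background for Clec4e, Il6, Maff and Hcar2, nor were the aSCM 24 h arrays for Frk, so these 5 differences rest on background signal on that side. The further genes with a large negative difference were Gdf15, Plpp3, Sfrp2 and Ccn2, with -4.64 for Gdf15, -4.62 for Plpp3, -4.61 for Sfrp2 and -4.40 for Ccn2. Since the largest rises and falls were chosen by their change in aSCM, the sign of their difference is partly fixed by the choice. Groups of 3 arrays were not searched for single outlying arrays.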

How the results depend on the processing

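With unprocessed deposited values, 5055 probes were called in aSCM, 2178 of them higher, 2767 in LZCM, 697 of them higher, and 4010 in the difference of time effects, 2293 higher and 1717 lower. The medians over all probes there were -0.07 in aSCM, -0.15 in LZCM and 0.07 in the difference. Each other alternative kept the counts of calls within 1.5 times of the reported ones. They were no background correction, 75th percentile scaling, cyclic loess, the authors' normalized table, either filter, a variance trend, array weights, an adjusted p under 0.01 and a fit of the aSCM or LZCM arrays alone. Leaving out each array in turn gave 7209 to 7639 calls in aSCM (3867 to 4100 higher, 3342 to 3546 lower), 3885 to 4895 in LZCM (1933 to 2438 higher, 1952 to 2457 lower) and 6284 to 6588 in the difference (3276 to 3437 higher, 3005 to 3161 lower). With the replicate number as a block (replicate block), 7776, 4706 and 6751 probes were called. Same-numbered aSCM samples of the 2 times deviated together with correlations of 0.035 to 0.21, not all over 0.1. Of the 6 samples, 4 correlated best with their own number. With 3 arrays per group these values cannot decide whether a number pairs samples. Of 5863 values of 246 genes under the alternatives, 5745 stayed on the same side of the threshold, 63 lost and 55 gained a call, and no called value changed sign. Of 1050 counts over lists, 22 moved by over 1.5 times. Signals at the dim end rest on the background model, and those near 16 cannot show further rises.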
